A study of Mus musculus with 10 samples.

Results

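Naprt, Mroh6 and Eef1d are neighbouring genes on mouse chromosome 15, and their RNA was followed here in round spermatids, haploid cells on the way to sperm, after a short heating of the testis. The 3 members are the gene rows of the count table that carry these symbols, out of 55401 genes in the table and 24948 genes that passed the filter on low counts, all 3 members among them. They were chosen because earlier results on the same libraries showed Naprt and Mroh6 higher after heating and Eef1d lying next to them, so their difference between the groups is given as a description, with no test. The 42 °C group held 5 adult male CD1 mice, an outbred stock, whose testes rested on water at 42 °C for 30 minutes under isoflurane, and the 33 °C group held 5 such mice treated alike with water at 33 °C. The mice were killed once awake, and each gave 1 stranded library of total RNA depleted of ribosomal RNA.

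Naprt encodes nicotinate phosphoribosyltransferase, which starts the route from nicotinic acid to the coenzyme NAD. Eef1d encodes the delta subunit of elongation factor eEF1B, which reloads eEF1A with GTP during protein synthesis. A longer product of the same gene has been described in brain and testis as a transcription factor that acts on heat shock elements. Mroh6 belongs to the maestro heat-like repeat family, whose name refers to a repeated protein fold and not to temperature.

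All 3 genes are transcribed from the minus strand and follow each other in the order Eef1d, Naprt, Mroh6 within 25.4 kb. In GRCm38, Eef1d (ENSMUSG00000055762) spans chromosome 15, 75894205 to 75909556, Naprt (ENSMUSG00000022574) spans 75890956 to 75894481, and Mroh6 (ENSMUSG00000098678) spans 75884137 to 75888770. The GENCODE M21 annotation gives the same ends for each. Exons of Eef1d and Naprt share 277 bases, because 1 of the 18 annotated Eef1d transcripts runs past the Naprt start site. The next nearest Eef1d transcript stops 318 bases before that site. Between the 3′ end of Naprt and the start of Mroh6 lie 2185 bases, and no other gene of the table overlaps Mroh6. How the authors' counting assigned reads in the shared bases is not given in the sources used here. Counts are per gene, so the long and short products of Eef1d are not separated.

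Total counts per library were 60623568 to 102086073 at 42 °C and 92311183 to 117723075 at 33 °C. One library stood apart, 42 °C replicate 2, which had the lowest total and 16.2% of its counts on transposable elements, against 4.62% to 9.07% in the other 9. The 6 round spermatid markers together held 984 to 1524 CPM (counts scaled to a common library size with TMM factors) at 42 °C and 839 to 1472 CPM at 33 °C. The 6 elongating spermatid markers summed to 1637 to 5272 CPM at 42 °C and 1312 to 3665 CPM at 33 °C, and the 6 spermatocyte markers to 194 to 369 CPM at 42 °C and 264.5 to 420 CPM at 33 °C. Markers of leukocytes, endothelium, spermatogonia, peritubular and stromal cells, and Sertoli and Leydig cells each summed to at most 27.9 CPM in any library, and erythroid markers to at most 0.406 CPM. The groups overlapped for all 10 of these sums. Of these markers Stra8, Rhox5, C1qa and 5 of the 6 erythroid ones averaged under 0.1 CPM. No marker passed the edgeR test in any list. The elongating spermatid markers were Prm1, Prm2, Tnp1, Tnp2, Smcp and Odf1. Among the spermatocyte markers, Piwil1 alone averaged 145 CPM at 42 °C and 178 CPM at 33 °C. Whether the RNAs of these lists are limited to the named stage, and absent from round spermatids, was not tested. The sums are therefore not shares of cells. In these bulk samples, fewer cells of a type and less RNA per cell cannot be told apart.

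Naprt was low at 33 °C and higher in every library at 42 °C. It had 83, 135, 113, 107 and 114 counts in 42 °C replicates 1 to 5, which are 0.833, 2.00, 1.12, 1.20 and 1.19 CPM. In 33 °C replicates 1 to 5 it had 22, 13, 31, 12 and 19 counts, or 0.243, 0.118, 0.315, 0.128 and 0.214 CPM. The groups did not overlap, and the lowest library at 42 °C lay above the highest at 33 °C. Naprt averaged 1.27 ± 0.436 CPM at 42 °C and 0.203 ± 0.0822 CPM at 33 °C (SD, n = 5 each), a ratio of 6.24. The edgeR log2 fold change, 42 °C minus 33 °C, was 2.63 (SE 0.33). Naprt thereby stood 30th from the top in log2 fold change among the 24948 tested genes, whose median was -0.03 and of which 47.0% lay above 0. This rank is a description only, since Naprt was chosen as higher at 42 °C in these libraries.

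Mroh6, next along the strand, was also low at 33 °C and higher at 42 °C in every library. Its counts were 52, 121, 69, 64 and 58 in 42 °C replicates 1 to 5, or 0.522, 1.79, 0.684, 0.717 and 0.607 CPM. In 33 °C replicates 1 to 5 the counts were 14, 15, 24, 16 and 11, or 0.154, 0.136, 0.243, 0.171 and 0.124 CPM. Here too the groups did not overlap, and 42 °C replicate 2 stood far above the other libraries. Mroh6 averaged 0.865 ± 0.525 CPM at 42 °C and 0.166 ± 0.0470 CPM at 33 °C (SD, n = 5 each), a ratio of 5.22, with a log2 fold change of 2.36 (SE 0.38). All 42 °C libraries lay above all 33 °C libraries for 343 of the 24948 tested genes, which is 1.37%, and Naprt and Mroh6 are among them by the way they were chosen.

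Eef1d was an abundant transcript in both groups, and its groups overlapped. It had 312, 305, 303, 455 and 401 CPM in 42 °C replicates 1 to 5, from 20542 to 40652 counts. In 33 °C replicates 1 to 5 it had 249, 260, 271, 198 and 390 CPM, from 18524 to 34606 counts. Replicate 5 at 33 °C lay above 3 of the 5 libraries at 42 °C, and the other 4 at 33 °C lay below all of them. Eef1d averaged 355 ± 69.5 CPM at 42 °C and 273.5 ± 71.0 CPM at 33 °C (SD, n = 5 each), a ratio of 1.30, with a log2 fold change of 0.38 (SE 0.18). The gene was high in 42 °C replicates 4 and 5 and in 33 °C replicate 5. The summed round spermatid markers were also highest in their group in 42 °C replicate 4 (1524 CPM) and 33 °C replicate 5 (1472 CPM), but 42 °C replicate 5 was only the third in its group (1124 CPM). The elongating spermatid markers were highest in 42 °C replicate 5 (5272 CPM) and, at 33 °C, in replicate 3 (3665 CPM) and not in replicate 5 (2225 CPM). The part of these cells in the level of Eef1d was not tested.

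**Figure D1:**
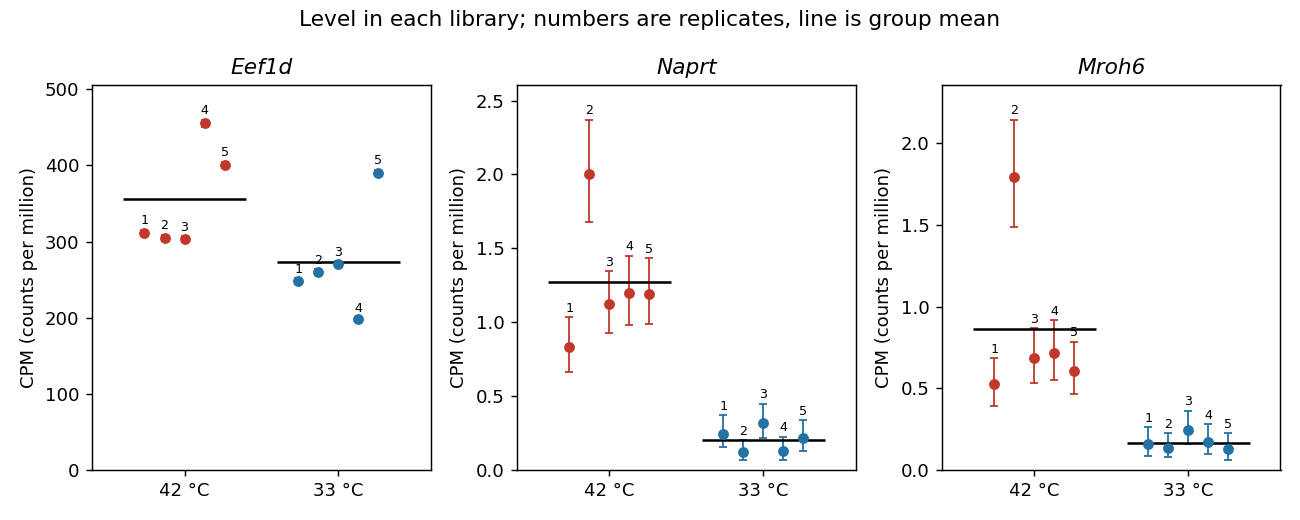
Level of each gene in CPM (vertical axis, linear, from 0) in each library, with 42 °C left of 33 °C. Points are libraries numbered by replicate, bars are exact Poisson 95% intervals of the counts (for Eef1d they are smaller than the points), and the line is the group mean. Naprt (0.833 to 2.00 CPM at 42 °C, 0.118 to 0.315 CPM at 33 °C) and Mroh6 (0.522 to 1.79 CPM at 42 °C, 0.124 to 0.243 CPM at 33 °C) separate the groups and Eef1d does not.

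The counts behind the low genes limit their precision. The lowest Naprt value at 42 °C, 0.833 CPM in replicate 1, has an exact Poisson 95% interval of 0.664 to 1.03 CPM, and the highest at 33 °C, 0.315 CPM in replicate 3, one of 0.214 to 0.447 CPM. For Mroh6 the same intervals are 0.390 to 0.685 CPM for 42 °C replicate 1 and 0.156 to 0.362 CPM for 33 °C replicate 3. They cover counting error only. The intervals of these nearest libraries do not meet for either gene, and both genes were chosen as higher at 42 °C.

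Library 42 °C replicate 2 had the highest level of both low genes, and not of Eef1d. Its TE share of 16.2% was the largest, its spermatocyte marker sum of 369 CPM was the highest at 42 °C, and its round spermatid marker sum of 984 CPM was the lowest there. The 33 °C library highest for both low genes, replicate 3, also had the largest TE share of its group (9.07%). Its round spermatid sum (839 CPM) was the lowest of that group. Its elongating spermatid (3665 CPM), Sertoli (8.93 CPM) and Leydig (18.2 CPM) sums were the highest there, while its spermatocyte sum (346 CPM) was the third. The part of other cells, or of what raises the TE share, in these levels was not tested. Without 42 °C replicate 2, Naprt averaged 1.09 ± 0.172 CPM at 42 °C (SD, n = 4), 5.34 times the 33 °C mean of 0.203 CPM. Mroh6 averaged 0.632 ± 0.0868 CPM at 42 °C (SD, n = 4), which is 3.82 times the 33 °C mean of 0.166 CPM. That library was the highest for both genes, so leaving it out could not make their groups overlap, and the separation without it adds nothing. The fitted log2 fold change without it was 2.45 for Naprt, 1.96 for Mroh6 and 0.46 for Eef1d.

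Set against Eef1d in the same library, both low genes were higher at 42 °C. Naprt had 2.67, 6.57, 3.69, 2.63 and 2.98 counts per 1000 Eef1d counts in 42 °C replicates 1 to 5. In 33 °C replicates 1 to 5 it had 0.976, 0.452, 1.16, 0.648 and 0.549. The groups did not overlap, so the difference of Naprt was larger than that of Eef1d in these libraries. Mroh6 had 1.68, 5.89, 2.25, 1.57 and 1.51 counts per 1000 Eef1d counts in 42 °C replicates 1 to 5. In 33 °C replicates 1 to 5 it had 0.621, 0.522, 0.899, 0.864 and 0.318. These groups did not overlap either. Both low genes were chosen as higher at 42 °C, so their separation on this scale follows in part from that choice. How many other genes separate the groups on this scale was not counted. Counts of Mroh6 per count of Naprt, in contrast, ran from 0.509 to 0.896 at 42 °C and from 0.579 to 1.33 at 33 °C, with overlap.

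Per exonic kilobase the gap between the abundant gene and its neighbours stayed wide. Levels were divided by the union of annotated exons, 6.49 kb for Eef1d, 2.34 kb for Naprt and 2.22 kb for Mroh6. Eef1d averaged 54.8 CPM per kb at 42 °C and 42.1 CPM per kb at 33 °C. Naprt averaged 0.542 CPM per kb at 42 °C and 0.0868 CPM per kb at 33 °C, and Mroh6 averaged 0.390 CPM per kb at 42 °C and 0.0748 CPM per kb at 33 °C. Within a library, the level of Naprt per kb was 0.728% to 1.82% of that of Eef1d at 42 °C and 0.125% to 0.321% at 33 °C. For Mroh6 it was 0.443% to 1.73% at 42 °C and 0.0931% to 0.263% at 33 °C. Both genes therefore stayed under 2% of the level of Eef1d per kb in every library.

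**Figure D2:**
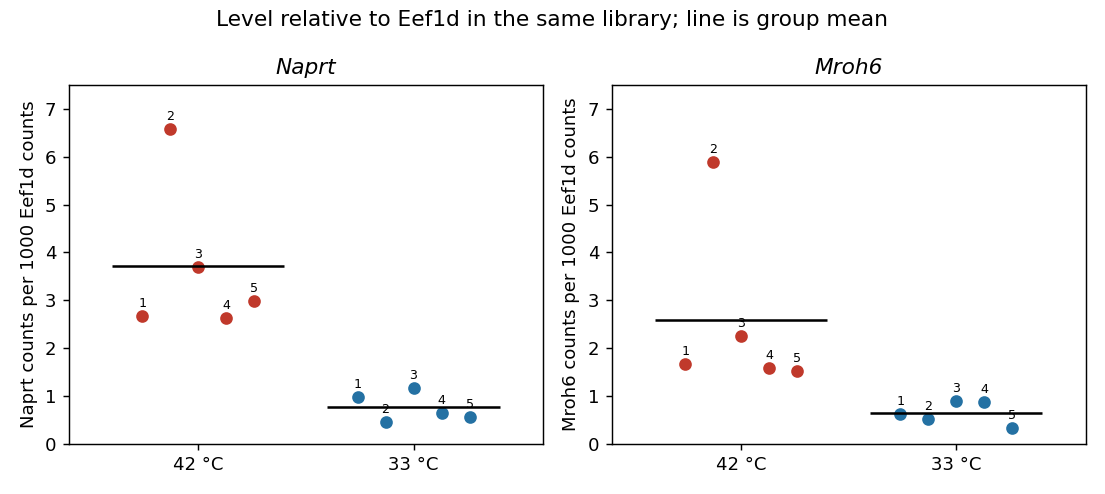
Counts of Naprt (left) and Mroh6 (right) per 1000 counts of Eef1d in the same library (vertical axis, linear, from 0), with 42 °C left of 33 °C, points numbered by replicate and the group mean as a line. All 5 libraries at 42 °C lie above all 5 at 33 °C in both panels, and 42 °C replicate 2 is highest, at 6.57 and 5.89. Both genes were chosen as higher at 42 °C.

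Within the groups, Naprt and Mroh6 had the same highest library and Eef1d another, and the relations over libraries depended on which were included. On log2 CPM with the mean of each group taken off, Naprt and Mroh6 had a Pearson r of 0.72 and a Spearman rho of 0.62 over the 10 libraries. Ranked by this r among 24947 tested genes, Mroh6 was number 1047 for Naprt, and Naprt was number 2345 for Mroh6. Leaving out 33 °C replicate 3 and 42 °C replicate 2, the libraries farthest from the median of either gene, gave r = 0.14, so the relation within groups rests on those libraries. Eef1d had an r of 0.21 with Naprt (rho 0.24) and of -0.30 with Mroh6 (rho -0.35) on the same scale. Without the same pair of libraries these were 0.54 and -0.32, so the value for Naprt and Eef1d was then above that for Naprt and Mroh6. Without 33 °C replicate 5 and 42 °C replicate 4, the farthest for Eef1d, they were 0.26 and -0.18. The highest library at 42 °C was replicate 2 for Naprt and Mroh6 and replicate 4 for Eef1d. At 33 °C it was replicate 3 for both low genes and replicate 5 for Eef1d. These values are descriptions, over points that share their library and its depth.

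The genes most like each member were ranked by Pearson r of log2 CPM over the 10 libraries. They were taken among tested genes with a symbol and a mean of at least 1 CPM over these libraries, with the members left out. For Naprt, whose groups do not overlap, they were Gm44646 (r = 0.96), Slmapos2 (0.96), Slc51a (0.95), Ern1, the stress sensor kinase IRE1 (0.94), and 4930555K19Rik (0.93), a gene of chromosome 15 with no count in any 33 °C library. For Mroh6 they were Erich5 (r = 0.99), Polg2 (0.96), 4930431P03Rik (0.96), Gm49364 (0.96) and Gm44646 (0.95), of which only Erich5 also lies on chromosome 15. Eef1d was most like Gpd2, the mitochondrial glycerol-3-phosphate dehydrogenase (r = 0.998), Capza3, an actin capping subunit of spermatids (0.995), 1700009N14Rik (0.993), Aif1 (0.992) and Tmco2 (0.992). With the group means taken off, Gpd2 (0.997), Capza3 (0.993), 1700009N14Rik (0.991) and Aif1 (0.989) were again among its 5 most like genes, together with Csnka2ip (0.991). On that scale Naprt was most like Gm44200, Gm20753, Gm35618, Gm9530 and Gm20634 (r from 0.91 to 0.92), and Mroh6 was most like Hmgb2, U2af2, Ccdc142, Erich5 and Pla2g4b (r from 0.96 to 0.98). Slc51a, 4930555K19Rik, Erich5 and Ccdc142 averaged under 1 CPM at 33 °C and reached the required mean only through the 42 °C libraries. Naprt and Mroh6 were chosen as higher at 42 °C, so their r over the 10 libraries includes that difference. None of the listed genes lies within 100 kb of the locus, but the members themselves could not be listed. Over the 10 libraries Naprt and Mroh6 had r = 0.96 with each other. Eef1d had r = 0.60 with Naprt and 0.42 with Mroh6. Without 33 °C replicate 4 and 42 °C replicate 4, the farthest for Eef1d, these were 0.37 and 0.22. Without 33 °C replicate 2 and 42 °C replicate 2, the farthest for Naprt, the value with Naprt was 0.675. Without 33 °C replicate 5 and 42 °C replicate 2, the farthest for Mroh6, the value with Mroh6 was 0.82.

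None of the other tested genes around the locus passed the test. Of 12 further genes within 100 kb of the 3 members, 10 were tested, and edgeR called 0 higher and 0 lower at an adjusted p of 0.05. Over all tested genes it called 23 higher, or 0.0922%, and 1 lower, or 0.00401%, so a count of 0 among 10 says nothing particular about the locus. With no adjustment, 2 of the 10 were higher at p under 0.05 and 0 were lower, against 8.81% higher and 3.06% lower over all tested genes. DESeq2 and limma voom each called 0 of them. Their median log2 fold change was -0.12, beside -0.03 over all tested genes, with 3 positive and 7 negative. None of the 10 had groups that did not overlap. The untested processed pseudogene Gm9568, 27.9 kb past Mroh6 on the same strand, had 1 or 2 counts in each 42 °C library. It had 0 counts at 33 °C, so its groups did not overlap, on 6 counts in total.

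Tigd5, a gene derived from a tigger transposon, starts 0.179 kb from the start of Eef1d on the opposite strand. It had 10.8 to 15.6 CPM at 42 °C and 7.59 to 11.1 CPM at 33 °C, and 4 of the 5 libraries at 42 °C lay above all at 33 °C. The fitted difference of 0.44 on the log2 scale (SE 0.15, 95% interval 0.10 to 0.77) did not pass the test (edgeR adjusted p = 0.386). Gsdmd, the pore-forming gasdermin D, lies 16.7 kb past Mroh6 on the opposite strand and had 0.301 to 2.51 CPM at 42 °C and 0.395 to 0.812 CPM at 33 °C. The log2 difference of Gsdmd, 0.50 (SE 0.56) with an edgeR adjusted p of 0.687, turned to -0.53 without 42 °C replicate 5, the library at 2.51 CPM. Pycrl, a pyrroline-5-carboxylate reductase, and Tsta3, which makes GDP-fucose, lie before Eef1d on the same strand. Pycrl had 36 counts over the 5 libraries at 42 °C and 31 over those at 33 °C and was not tested. Tsta3 had 38.6 to 57.7 CPM at 42 °C and 50.7 to 64.3 CPM at 33 °C (-0.17 on the log2 scale, SE 0.13, 95% interval -0.44 to 0.11, with an edgeR adjusted p of 0.568). Zfp623, the other neighbour under an unadjusted p of 0.05 and named here after its values were seen, had 61 counts at 42 °C and 34 at 33 °C (0.94 on the log2 scale, SE 0.42, 95% interval 0.03 to 1.86, with an edgeR adjusted p of 0.430).

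**Figure D3:**
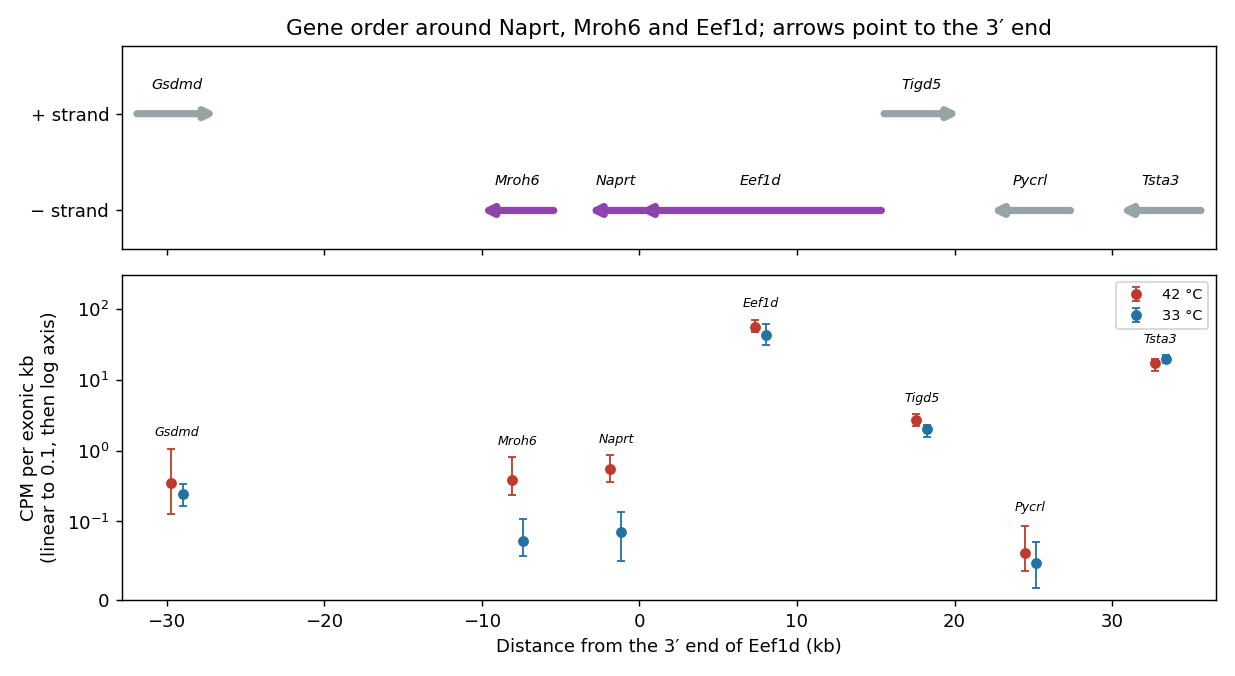
Genes within 25 kb of the 3 members, drawn to scale by distance in kb from the 3′ end of Eef1d, with strand in the upper panel and, in the lower panel, the mean CPM per exonic kb with the range over 5 libraries (linear to 0.1, then a log axis), 42 °C left of 33 °C. Naprt and Mroh6, the pair after Eef1d on the minus strand, are the genes whose ranges at 42 °C and 33 °C do not meet.

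None of the other tested genes of NAD synthesis passed the test. Of 23 further genes of NAD synthesis, transport and precursor breakdown 15 were tested, and edgeR called 0 higher and 0 lower, as did DESeq2 and limma voom. With no adjustment, 2 were higher at p under 0.05 (8.81% over all tested genes) and 1 was lower (3.06%). The median log2 fold change was 0.01, with 8 positive and 7 negative. Naprt makes nicotinic acid mononucleotide, which the transferases Nmnat1 and Nmnat3 and then the synthetase Nadsyn1 turn into NAD. Nmnat3, the mitochondrial form, had 38.0 to 54.1 CPM at 42 °C and 54.5 to 120 CPM at 33 °C, with no overlap, as was so in this direction for 177 tested genes, or 0.709%. The difference of Nmnat3 was -0.71 on the log2 scale (SE 0.19) and did not pass, with an edgeR adjusted p of 0.308. Nmnat1, the nuclear form, differed by -0.26 on that scale (95% interval -0.66 to 0.14) and Nadsyn1 by 0.01 (-0.24 to 0.27).

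Nmrk1, Nampt and Qprt, which take other precursors into NAD synthesis, were also found at low levels. Per exonic kb, Nmrk1, the nicotinamide riboside kinase, averaged 1.79 CPM at 42 °C and 1.19 CPM at 33 °C. Nampt, which uses nicotinamide, averaged 0.200 CPM per kb at 42 °C and 0.220 CPM per kb at 33 °C. Naprt thus stood above Nampt at 42 °C (0.542 CPM per kb) and below it at 33 °C (0.0868 CPM per kb). Qprt, which uses quinolinate, had 6 counts over all libraries at 42 °C and 4 over those at 33 °C. On the log2 scale the difference was -0.14 for Nampt (SE 0.18, adjusted p = 0.727 by edgeR) and 0.58 for Nmrk1 (SE 0.29, adjusted p = 0.457 by edgeR). Kmo, an enzyme of tryptophan breakdown toward quinolinate, differed by 0.81 (SE 0.36), with an edgeR adjusted p of 0.430.

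Among enzymes that consume NAD or remove ADP-ribose, Adprhl2 alone passed the edgeR test. Of 26 such genes 24 were tested, 1 was higher (0.0922% over all tested genes) and 0 were lower (0.00401%), and the median log2 fold change was -0.11, with 9 positive and 15 negative. Adprhl2, which encodes the ADP-ribose hydrolase ARH3, was put on the list with its result known. It had 0.884 to 1.20 CPM at 42 °C and 0.243 to 0.384 CPM at 33 °C. The difference was 1.66 on the log2 scale (SE 0.21), with an edgeR adjusted p of 0.0106, higher in 5 of 5 libraries, and it kept its call in each alternative except the replicate block (adjusted p = 0.268). Parp1, which builds ADP-ribose chains, had -0.08 (SE 0.16), and the deacylases Sirt1 and Sirt3 had -0.17 (SE 0.16) and -0.30 (SE 0.13), and edgeR called no difference for Parp1, Sirt1 or Sirt3.

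The partners of Eef1d in the elongation machinery did not pass the test. Of 21 further elongation and release factors 19 were tested, and edgeR, DESeq2 and limma voom each called 0. With no adjustment, 2 of the 19 were higher at p under 0.05, near the 8.81% over all tested genes, and 0 were lower, against 3.06%. The median log2 fold change was -0.10, with 7 positive and 12 negative. Per exonic kb, eEF1A (Eef1a1) averaged 442 CPM in the 42 °C group and 478 CPM in the 33 °C group. Eef1g, the gamma subunit, averaged 68.8 (42 °C) and 63.0 (33 °C) CPM per kb, and Eef1b2, the other exchange subunit, averaged 9.81 (42 °C) and 10.7 (33 °C). At 54.8 (42 °C) and 42.1 (33 °C) CPM per kb, Eef1d lay below Eef1g and above Eef1b2. Its range over libraries overlapped that of Eef1g in each group, at 33 °C only through replicate 5 (60.1 CPM per kb). The length used for Eef1d joins the exons of 18 annotated transcripts, and which of them are present was not tested. Vars, the valyl-tRNA synthetase that binds eEF1, averaged 53.4 CPM per kb at 42 °C and 37.7 CPM per kb at 33 °C. In both groups the mean of Vars lay closer to that of Eef1d than the mean of Eef1g did. Vars differed by 0.50 on the log2 scale (SE 0.22, with an edgeR adjusted p of 0.424), beside 0.38 for Eef1d, while Eef1a1 had -0.11 (SE 0.13), Eef1b2 had -0.13 (SE 0.13), Eef1g had 0.13 (SE 0.13) and the translocase Eef2 had -0.07 (SE 0.14). Eef1akmt1, a methyltransferase of eEF1A, had 0.51 (SE 0.23), the termination factor Gspt1 had -0.30 (SE 0.15), Eif5a had -0.21 (SE 0.12) and Eef1e1, a scaffold of the tRNA synthetase complex, had -0.20 (SE 0.22). Eef1a2, the muscle and neuron form of eEF1A, had 24 counts over the libraries at 42 °C and 31 over those at 33 °C and was not tested.

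Mroh6 had the lowest level per exonic kb among the 10 Mroh genes in both groups. The other 9 averaged from 1.44 CPM per kb (Mroh3) to 219 CPM per kb (Mroh4) at 42 °C, and from 1.12 to 236 CPM per kb at 33 °C, against 0.390 CPM per kb at 42 °C and 0.0748 CPM per kb at 33 °C for Mroh6. All 9 were tested and edgeR, DESeq2 and limma voom each called 0, where edgeR called 0.0962% of all tested genes. With no adjustment, Mroh5 alone was higher at p under 0.05 and 0 of the 9 were lower, near the 8.81% and 3.06% over all tested genes. Their median log2 fold change was -0.01. Mroh5, also on chromosome 15, had 86.1 to 187 CPM at 42 °C and 35.5 to 114 CPM at 33 °C (0.82 on the log2 scale, SE 0.29, with an edgeR adjusted p of 0.386). The remaining values lay between -0.14 for Mroh8 (SE 0.13) and 0.36 for Mroh3 (SE 0.33), with Mroh1 at -0.01, Mroh2a at -0.11, Mroh2b at -0.10, Mroh4 at -0.11, Mroh7 at 0.20 and Mroh9 at 0.13.

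**Figure D4:**
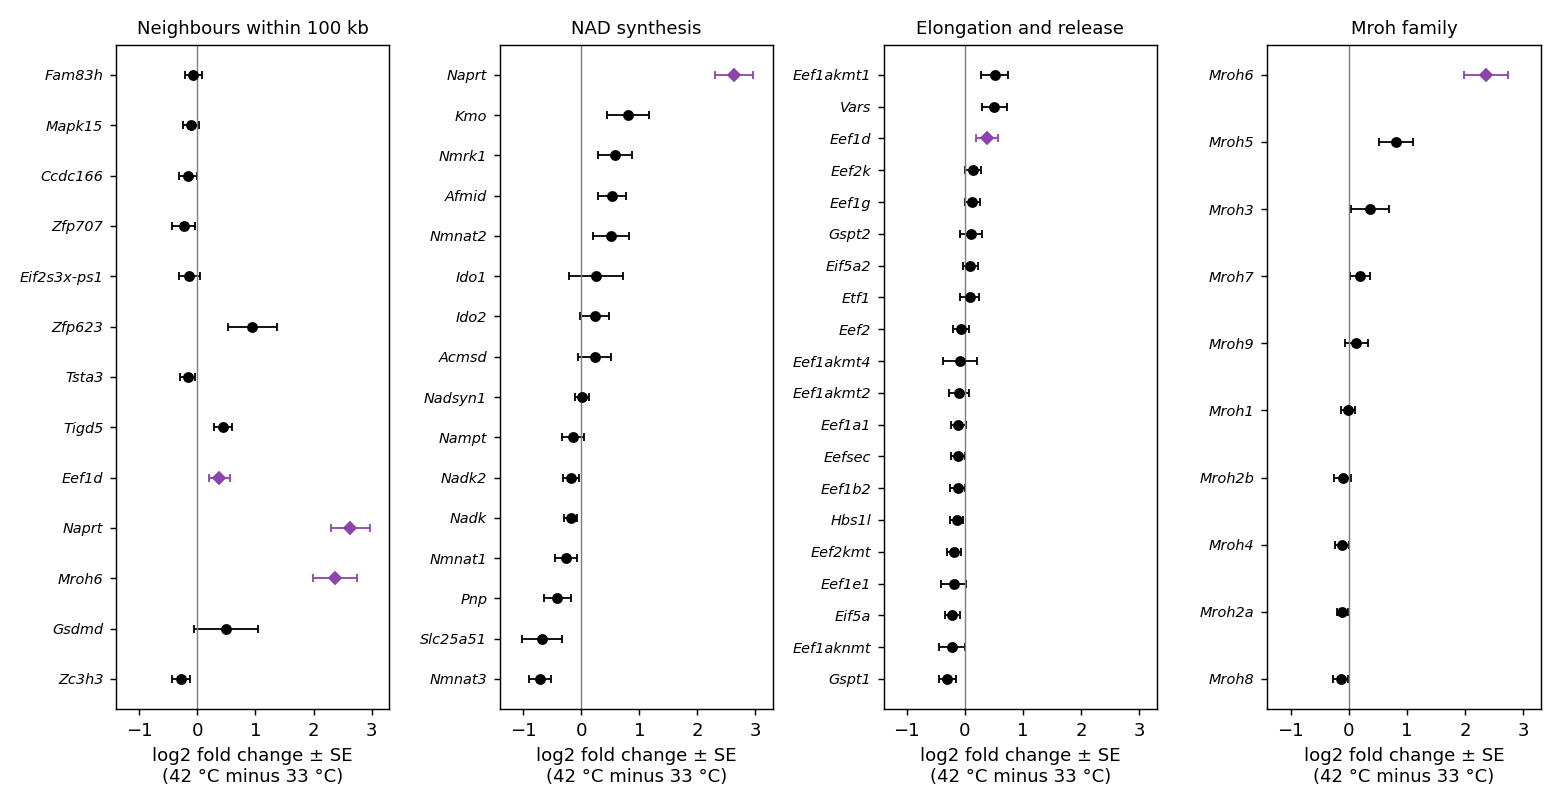
Log2 fold change, 42 °C minus 33 °C (horizontal axis), with the edgeR SE as bars, for tested genes within 100 kb in chromosomal order, genes of NAD synthesis, elongation and release factors, and the Mroh family. Diamonds mark Naprt (2.63), Mroh6 (2.36) and Eef1d (0.38), and circles mark the other genes, which lie between -0.71 and 0.94.

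**Figure D5:**
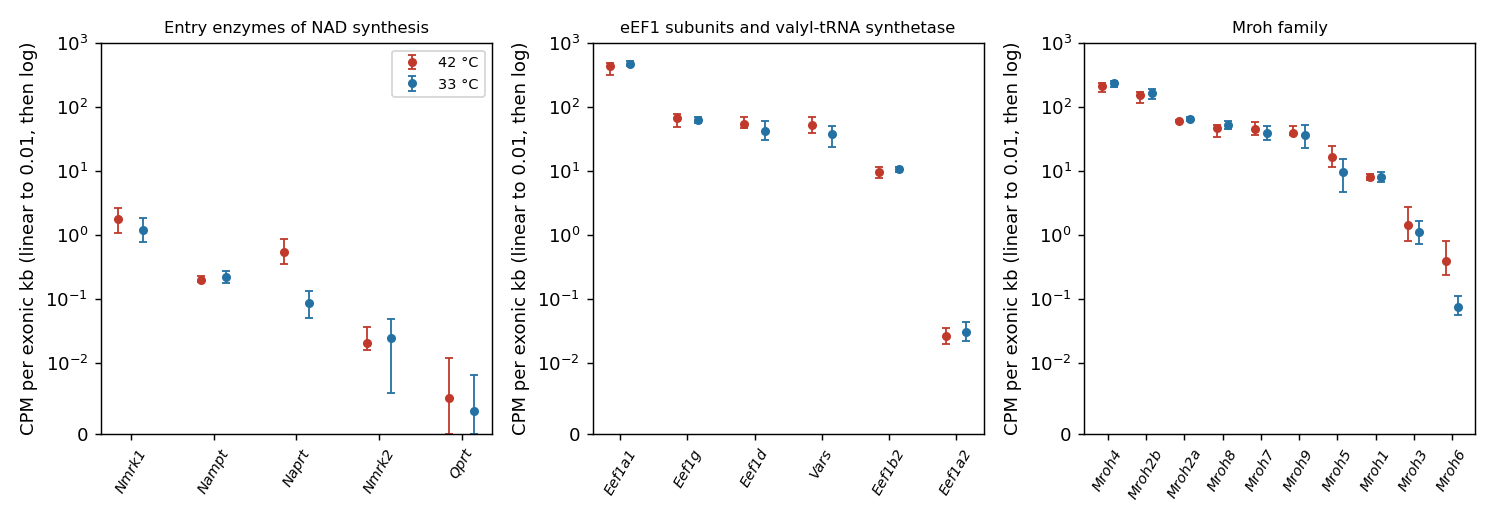
The vertical axis is mean CPM per exonic kb (linear to 0.01, then a log axis). Bars are the range over 5 libraries, with 42 °C left of 33 °C. Panels show NAD synthesis (Naprt, Nampt, Nmrk1, Nmrk2 and Qprt), the eEF1 subunits with Vars, and the Mroh family. Each panel is ordered by the 33 °C level. Naprt lies above Nampt at 42 °C (0.542 against 0.200) and Mroh6 is the lowest of its family in both groups.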

How the data were processed

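What the authors deposited is a single table of unnormalised counts for genes and transposable element (TE) subfamilies, and the unit was judged from its whole numbers. Per the submitters' processing notes, Trim Galore, cutadapt and DRAGEN were used with GRCm38 and mm10. The sources used here do not give versions, the counting tool, its strand setting or its treatment of multiply aligned reads. Groups came from the titles. Counts were tested with the edgeR 4.0.16 quasi-likelihood test (R 4.3.3), with TMM scaling, filterByExpr (minimum count 10, minimum total 15) and Benjamini-Hochberg adjustment over 26025 features (24948 genes and 1077 TE subfamilies) at 0.05. CPM use TMM-scaled totals. The p-values set the difference between groups against the spread between libraries. Each mouse gave a single library, so differences between mice and between preparations cannot be told apart. Exon lengths are unions of GENCODE M21 exons. The edgeR step was checked on simulated data. Alternatives were DESeq2 1.42.0, limma voom 3.58.1, other scaling, no filter, a replicate block and leaving out each library.

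The members and lists were chosen with earlier results of these data known. Named genes were the members, genes within 25 kb, fixed pathway genes with the 4 of smallest p in the NAD and elongation lists, the tested Mroh genes and the 5 genes most like each member. Promoter sequences of the members were not used here. The most alike libraries of a group, 42 °C replicates 1 and 3, differed by 15.4 times sampling noise (chi-square over its degrees of freedom), so no library was counted as a repeat of another.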

Additional observations from a re-analysis of the deposited data

Results flagged for a closer look

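Of 37 genes screened in both groups, 9 values stood far from the other 4 libraries of their group, where chance flags about 1 in 20 groups. Mroh6 in 42 °C replicate 2 was at 1.79 CPM, and the other libraries at 42 °C ran from 0.522 to 0.717 CPM. The same library was low for Eef1a1 (790 CPM, others at least 1156), Eef2 (1276 CPM, others at least 1774), Mroh8 (166.5 CPM, others at least 240.2), Mroh4 (692 CPM, others at least 896) and Mroh2b (686 CPM, others at least 948). Thus 6 of the 9 values came from the library of lowest total count. Gsdmd in 42 °C replicate 5 was at 2.51 CPM, with the others at 0.301 to 0.594 CPM. In 42 °C replicate 4, Sirt3 was at 42.0 CPM, with the others at 50.7 to 52.9 CPM, and Mroh9 at 152 CPM, with the others at 107 to 112 CPM.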

How the results depend on the processing

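Naprt and Eef1d kept their direction in all 16 alternatives, with log2 fold changes of 2.40 to 2.85 and 0.27 to 0.58. Mroh6 had 1.96 with limma voom, and 1.96 to 2.54 when 1 library was left out, lowest without 42 °C replicate 2. The count of genes called higher and lower was 73 and 3 with no filter on low counts, 306 and 41 with DESeq2, and 124 and 29 with limma voom. With the replicate block it was 4 and 0, and the NAD lists then held 0 calls. Same-numbered libraries did not deviate together (r from -0.53 to -0.15). The titles do not say that the numbers pair mice, and these correlations cannot exclude a pairing. Without 1 library the count was 10 to 21 higher and 0 to 2 lower. At 33 °C, leaving out replicate 1 gave 12 higher, and leaving out replicate 4 gave 10 higher and 2 lower. At 42 °C, leaving out replicate 1 or 4 gave 15 higher and leaving out 2 or 5 gave 14, and each of the 5 omissions there gave 0 lower. Neighbours, elongation factors and Mroh genes had 0 calls throughout. Of 496 values of 31 named genes, 472 kept direction and call, 1 lost its call and 23, in 9 genes, changed sign. Mroh1 had 0.00079 with the size factors of DESeq2, 0.029 with TMM from genes only, 0.028 with no filter and -0.075 to 0.096 without 1 library. With limma voom Gsdmd had -0.16, Parp1 0.055, Eef1b2 0.0049 and Eef2 0.014, and Gsdmd had -0.028 with the replicate block. Without 1 library the range was -0.53 to 0.73 for Gsdmd, -0.17 to 0.022 for Parp1, -0.13 to 0.047 for Eef2, -0.013 to 0.081 for Nadsyn1, -0.16 to 0.017 for Eef1a1, -0.17 to 0.017 for Mroh2b and -0.012 to 0.55 for Mroh3. The cause of these changes was not tested. Counts of 11 to 31 per library at 33 °C limit the folds of Naprt and Mroh6.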
